A study of Mus musculus with 10 samples.

Results

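Collagen RNA in gonadal fat of female mice was compared between libraries labelled KO and WT. All 44 protein-coding genes whose names give a collagen chain were taken from a deposited table of 40503 genes, of which 21561 were protein-coding. Each of 5 KO and 5 WT female C57BL/6 mice, 12 weeks of age, gave 1 RNA-seq library. The KO mice carried Med19-iAKO, an inducible, adipose-specific knockout of a subunit of Mediator, which links transcription factors to RNA polymerase II. They were given tamoxifen at 100 mg/kg for 5 days, and tissue was taken 14 days later. The sources used here give neither the Cre driver nor whether WT mice had tamoxifen. Libraries are named by group and animal number, and each is a separate animal.

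Collagens are secreted as helical trimers of chains and make up much of the extracellular matrix. Fibrillar collagens form the load-bearing fibres, type IV collagens form the sheet-like network of basement membranes that surrounds each fat cell and capillary, and type VI collagens form beaded microfilaments next to those membranes. The FACIT collagens lie on the surface of fibrils. In fat, fibroblasts and adipocyte progenitors are a main source of the fibrillar chains, and adipocytes and endothelial cells also make basement membrane.

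Med19 RNA could not check the labels, since its level was 6.79 ± 0.85 RPKM in KO-labelled and 6.70 ± 0.89 RPKM in WT libraries (SD, n = 5 each, 2-sided exact permutation p = 0.881). RPKM is a read count scaled to gene length and library size. Recovered reads per library numbered 14444803 to 20184282. Summed markers of adipocytes came to 5468 to 5729 RPKM in KO-labelled and 13579 to 19672 RPKM in WT libraries, and 9 of 10 were called lower. Fibroblast and progenitor markers summed to 1464 to 1780 RPKM in KO-labelled and 1095 to 1317 RPKM in WT libraries, with 2 of 10, Dpt and Lum, called higher. Macrophage markers summed to 4468 to 5609 RPKM in KO-labelled and 3631 to 4835 RPKM in WT libraries, and none of 10 was called. Lyz2, with a log2 change of 0.15, made up most of that sum. The median log2 change of the 10 was 0.32, beside 0.09 over all genes. Endothelial markers summed to 127 to 185 RPKM in KO-labelled and 151 to 189 RPKM in WT libraries, with 1 of 10, Kdr, called lower. Pericyte and smooth muscle markers summed to 227 to 280 RPKM in KO-labelled and 249 to 333 RPKM in WT libraries, with 2 of 10, Cspg4 and Mcam, called lower. Mesothelial markers summed to 310 to 376 RPKM in KO-labelled and 275 to 329 RPKM in WT libraries. Skeletal muscle markers summed to 94.8, 64.4, 8.73, 8.11 and 10.9 RPKM in KO 1, 4, 7, 8 and 17, and to 22.3 to 47.6 RPKM in WT libraries. Schwann cell, mammary epithelial and cartilage markers summed to at most 25.8 RPKM. No marker of these last 5 lists was called. Over all genes tested with limma, 4.00% were called higher and 1.95% lower at an adjusted p under 0.05. The part of these cell types in the collagen results was not tested. In bulk tissue, fewer cells of a type and less RNA per cell cannot be told apart.

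Summed collagen RNA overlapped between the groups. The 44 genes took 1.66 to 2.03% of assigned reads in KO-labelled libraries and 1.43 to 2.30% in WT libraries. Their summed level was 2065 to 2457 RPKM in KO-labelled and 1793 to 2831 RPKM in WT libraries, so the KO-labelled range lay inside the WT range. The 7 genes that averaged over 100 RPKM, in falling order of mean level, were Col3a1, Col1a1, Col6a1, Col1a2, Col4a1, Col4a2 and Col6a2. They made up 77.2 to 81.1% of the summed collagen level in KO-labelled and 79.0 to 83.2% in WT libraries.

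Of the 44 genes, 31 reached 0.5 RPKM in at least 5 of the 10 libraries and were tested with limma, with p-values adjusted over all 17038 genes tested. Col12a1 was the only gene called higher at an adjusted p under 0.05, and no collagen gene was called lower. That is 3.23% of the tested collagens, against 5.95% of all genes tested (4.00% higher and 1.95% lower). At an unadjusted p under 0.05 there were 5 of 31 (16.1%), namely Col12a1, Col6a1, Col28a1, Col4a3 and Col4a4, against 24.7% of all genes. Groups did not overlap for 3 of 31 (9.68%), against 9.11% of all genes. In Col12a1 all KO-labelled libraries were higher, as in 6.96% of all genes, and in Col4a3 and Col8a1, 2 of 31, all were lower, as in 2.15% of all genes. Col4a3 passed the filter through its WT libraries, so neither its unadjusted p nor its lack of overlap supports anything. The shares called, with an unadjusted p under 0.05 and without overlap in either direction were near or below the background. The median log2 change of the tested collagens was 0.02, beside 0.09 over all genes, and 20 of 31 lay below the all-gene median. That median is not matched for the GC content of the transcripts, which is described below. The median by class was 0.02 for 9 fibrillar, -0.12 for 6 basement membrane, 0.14 for 4 FACIT, 0.17 for 5 microfibrillar and -0.11 for 7 other collagens.

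**Figure D1:**
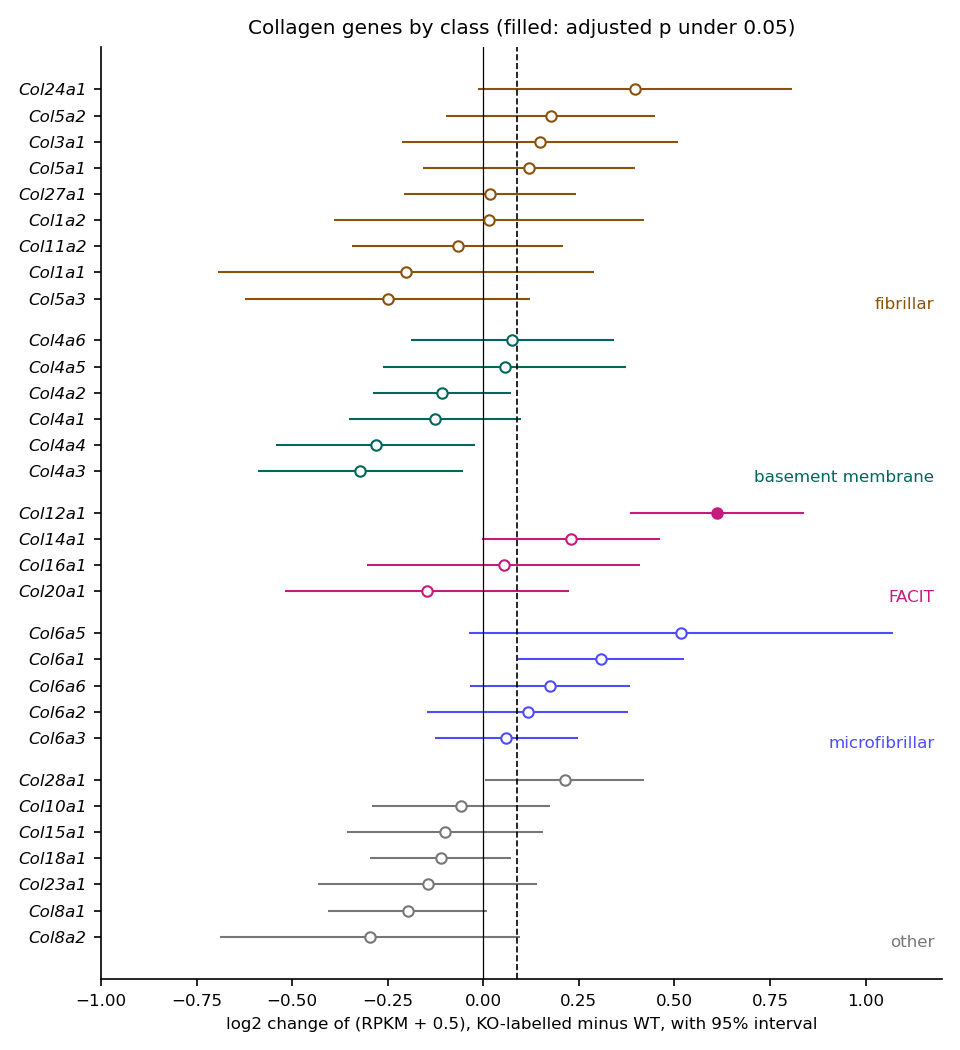
The log2 change of each tested collagen gene, KO-labelled minus WT, on the log2(RPKM + 0.5) scale with its 95% interval from limma, grouped by class. The solid line is 0 and the dashed line the all-gene median of 0.09, and only Col12a1, at 0.61, is filled as called.

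Among the FACIT collagens, Col12a1 (ENSMUSG00000032332), which encodes the type XII chain that binds the surface of type I fibrils, rose. Its levels were 5.90, 5.78, 4.78, 4.43 and 5.24 RPKM in KO 1, 4, 7, 8 and 17, against 2.81, 3.07, 4.04, 3.10 and 3.25 RPKM in WT 2, 9, 19, 86 and 89. All KO-labelled libraries were above all WT libraries, although KO 8 and WT 19 were close. Col12a1 averaged 5.23 ± 0.63 RPKM in KO-labelled and 3.25 ± 0.47 RPKM in WT libraries (SD, n = 5 each), a ratio of means of 1.61. On the log2(RPKM + 0.5) scale it was 1.53-fold higher (log2 change 0.61, SE 0.10, 95% interval 0.38 to 0.84, limma adjusted p = 0.00977). With the 3 WT animals numbered under 20, which leaves out WT 86 and WT 89, the log2 change was 0.60 and the call was lost (limma adjusted p = 0.0808). It was kept under the other 20 of 21 alternatives.

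The other FACIT collagens were not called. Col14a1, the type XIV chain and a close relative of Col12a1, had 15.1, 19.1, 15.2, 14.0 and 16.8 RPKM in KO 1, 4, 7, 8 and 17, against 10.8, 13.4, 15.5, 14.3 and 14.0 RPKM in WT 2, 9, 19, 86 and 89. The groups overlapped, and its log2 change was 0.23 (SE 0.11, limma adjusted p = 0.209). Col16a1 averaged 14.3 ± 3.1 RPKM in KO-labelled and 13.7 ± 2.7 RPKM in WT libraries (SD, n = 5 each). Col20a1 averaged 1.11 ± 0.32 RPKM in KO-labelled and 1.29 ± 0.34 RPKM in WT libraries (SD, n = 5 each).

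All 5 tested type VI genes had a log2 change above 0, from 0.06 to 0.52, although Col6a3 was at -0.033 with median-ratio scaling and -0.034 with quantile normalization, and none was called. Over all genes tested 68.7% lay above 0, and 4 of the 5 lay above the all-gene median. Col6a1 (ENSMUSG00000001119), the most abundant, had 328, 312, 308, 323 and 290 RPKM in KO 1, 4, 7, 8 and 17, against 231, 239, 307, 272 and 219 RPKM in WT 2, 9, 19, 86 and 89. KO 17 lay below WT 19, and all other KO-labelled libraries lay above every WT library. Its log2 change was 0.31 (SE 0.10, limma adjusted p = 0.0876). It was called when WT 19 was left out (0.38, limma adjusted p = 0.0433) and by voom on recovered reads (0.31, limma adjusted p = 0.0492).

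Col6a2, which joins Col6a1 and a larger chain in the type VI trimer, had 102, 107, 97.5, 112 and 100.5 RPKM in KO 1, 4, 7, 8 and 17, against 83.7, 87.9, 124, 109 and 80.6 RPKM in WT 2, 9, 19, 86 and 89. WT 19 was the highest of the 10 libraries. Col6a3, that larger chain and the source of endotrophin, averaged 52.7 ± 2.9 RPKM in KO-labelled and 50.8 ± 6.0 RPKM in WT libraries (SD, n = 5 each). Col6a5 had 50.7, 75.0, 75.8, 52.8 and 58.1 RPKM in KO 1, 4, 7, 8 and 17, against 46.1, 31.5, 49.0, 74.2 and 27.4 RPKM in WT 2, 9, 19, 86 and 89. Its log2 change of 0.52 was the largest of the class, with a wide 95% interval of -0.04 to 1.07 (limma adjusted p = 0.232), and WT 86 lay among the KO-labelled libraries. Col6a6 averaged 16.5 ± 1.8 RPKM in KO-labelled and 14.5 ± 1.6 RPKM in WT libraries (SD, n = 5 each). As a share of the summed collagen level, type VI genes took 23.1 to 26.6% in KO-labelled and 19.6 to 23.4% in WT libraries.

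Col6a1 and Col6a2 are neighbours on chromosome 10, and their promoter windows are shown because the ratio of these genes differed between the groups. Each runs 5′ to 3′ on the gene's strand from 250 bases before to 50 bases after a RefSeq start in GRCm38.p6. Capitals mark the CCAAT box, the GC box GGGCGG and the TATA box TATAAA, on either strand and with no overlap between motifs. Col6a1 is at chr10:76725995-76726294 on the minus strand and Col6a2 at chr10:76623581-76623880 on the minus strand.
Col6a1: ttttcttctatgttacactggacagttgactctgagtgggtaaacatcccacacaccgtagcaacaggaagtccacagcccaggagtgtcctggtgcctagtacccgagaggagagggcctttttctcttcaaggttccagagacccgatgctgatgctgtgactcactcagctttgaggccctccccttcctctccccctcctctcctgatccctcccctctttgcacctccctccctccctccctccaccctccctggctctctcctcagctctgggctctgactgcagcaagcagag
Col6a2: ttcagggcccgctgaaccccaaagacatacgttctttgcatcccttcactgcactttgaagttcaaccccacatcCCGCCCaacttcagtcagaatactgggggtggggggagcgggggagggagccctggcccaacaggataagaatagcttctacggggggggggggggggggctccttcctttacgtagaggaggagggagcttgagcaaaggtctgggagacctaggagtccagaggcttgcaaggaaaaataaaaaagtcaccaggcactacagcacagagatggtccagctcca
The Col6a1 window held none of the motifs, and the Col6a2 window held 1 GC box.

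No fibrillar collagen was called. Col1a1 (ENSMUSG00000001506), the main chain of type I collagen, had 318, 346, 274, 331 and 336 RPKM in KO 1, 4, 7, 8 and 17, against 276, 281, 616, 485 and 292 RPKM in WT 2, 9, 19, 86 and 89. WT 19 and WT 86 stood above every other library, while the KO-labelled libraries lay close together. Its mean was 321 ± 28 RPKM in KO-labelled and 390 ± 150 RPKM in WT libraries (SD, n = 5 each), with a log2 change of -0.20 (95% interval -0.69 to 0.29, limma adjusted p = 0.627).

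Its partner Col1a2 had 192, 256, 179, 210 and 213 RPKM in KO 1, 4, 7, 8 and 17, against 163, 176, 304, 255 and 167 RPKM in WT 2, 9, 19, 86 and 89. Col3a1, the type III chain of fine fibrils, had 535, 682, 474, 572 and 565 RPKM in KO 1, 4, 7, 8 and 17, against 394, 465, 686, 615 and 436 RPKM in WT 2, 9, 19, 86 and 89. For both, WT 19 was the highest library, and their log2 changes were 0.01 and 0.15 (limma adjusted p = 0.972 and 0.632). The type V chains, which help set fibril diameter, averaged 68.7 ± 3.6 RPKM in KO-labelled and 64.2 ± 13 RPKM in WT libraries for Col5a1 (SD, n = 5 each). Col5a2 averaged 51.7 ± 4.1 RPKM in KO-labelled and 46.3 ± 9.1 RPKM in WT libraries (SD, n = 5 each). Col5a3 averaged 26.1 ± 4.1 RPKM in KO-labelled and 31.6 ± 8.5 RPKM in WT libraries (SD, n = 5 each), a log2 change of -0.25 that was not called.

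Col24a1, a fibrillar chain known from developing bone and cornea, had 24.2, 20.9, 29.8, 24.7 and 15.8 RPKM in KO 1, 4, 7, 8 and 17, against 18.7, 14.4, 20.5, 20.8 and 12.5 RPKM in WT 2, 9, 19, 86 and 89. The groups overlapped, and the log2 change of 0.40 was not called (95% interval -0.01 to 0.81, limma adjusted p = 0.215). Col27a1 and Col11a2 were at 2.28 to 2.80 and 0.308 to 0.551 RPKM in KO-labelled libraries, against 2.01 to 3.17 and 0.372 to 0.578 RPKM in WT libraries.

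**Figure D2:**
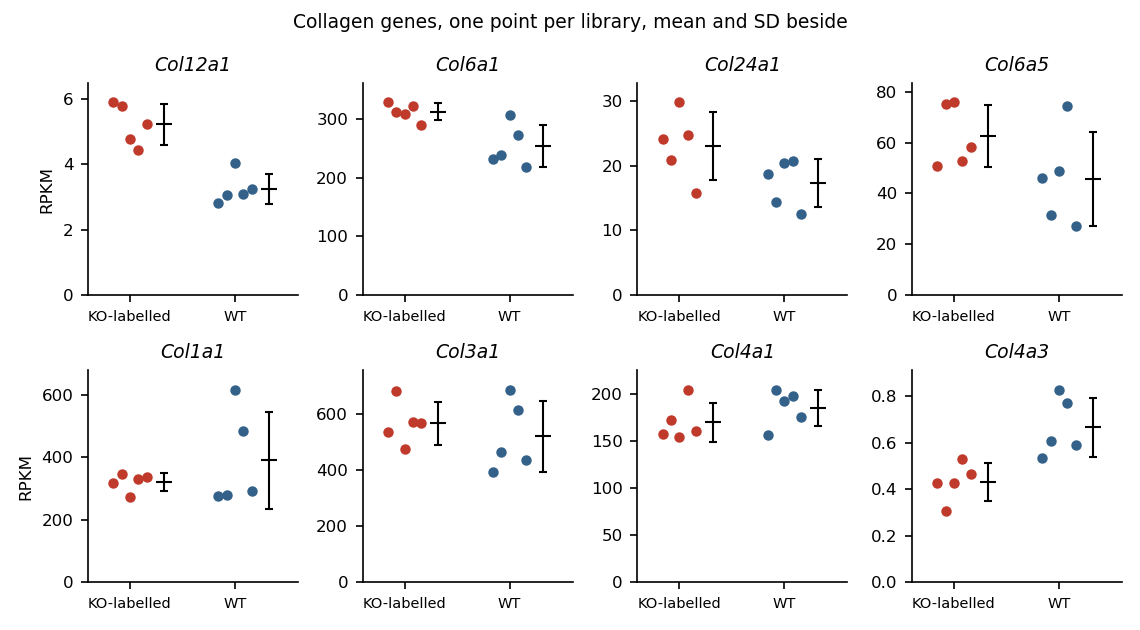
RPKM of 8 collagen genes, with a point for each library and the mean and SD beside each group, KO-labelled at left and WT at right. Col12a1 points do not overlap between the groups, and for Col1a1 WT 19 (616 RPKM) and WT 86 (485 RPKM) stand above the others.

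Type IV collagens of the basement membrane were not called either. All 6 lay below the all-gene median change, Col4a3 among them having passed the filter through its WT libraries. Beside genes of like GC content this did not hold for Col4a6, at 0.08 against a group median of 0.05. Col4a1, with Col4a2 the common network of most basement membranes, had 158, 172, 154, 205 and 161 RPKM in KO 1, 4, 7, 8 and 17, against 157, 204, 193, 198 and 176 RPKM in WT 2, 9, 19, 86 and 89. Col4a2 had 108, 105, 109, 127 and 111 RPKM in KO 1, 4, 7, 8 and 17, against 113, 129, 124, 132 and 106 RPKM in WT 2, 9, 19, 86 and 89. The groups overlapped for both, with log2 changes of -0.13 and -0.11 (limma adjusted p = 0.486 and 0.459). These values stand beside adipocyte marker sums that were lower in every KO-labelled library than in any WT library.

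Col4a3 (ENSMUSG00000079465) and Col4a4, best known from the kidney filter, were near the limit of the test. Col4a3 had 0.429, 0.308, 0.425, 0.530 and 0.468 RPKM in KO 1, 4, 7, 8 and 17, against 0.534, 0.608, 0.830, 0.770 and 0.591 RPKM in WT 2, 9, 19, 86 and 89. All KO-labelled libraries were below all WT libraries, with 62 to 134 reads per library over both groups. It passed the filter through the group where it is high, with 1 KO-labelled and 5 WT libraries at 0.5 RPKM or more, so its values are a description. The log2 change was -0.32 and was not called (limma adjusted p = 0.134), and voom on recovered reads gave -0.64 (limma adjusted p = 0.0352). Because of that filter, neither p-value supports a difference. Col4a4 averaged 0.578 ± 0.070 RPKM in KO-labelled and 0.818 ± 0.18 RPKM in WT libraries (SD, n = 5 each), a log2 change of -0.28 (limma adjusted p = 0.172). Col4a5 averaged 11.0 ± 2.2 RPKM in KO-labelled and 10.5 ± 1.8 RPKM in WT libraries (SD, n = 5 each). Col4a6 averaged 4.88 ± 0.79 RPKM in KO-labelled and 4.59 ± 0.66 RPKM in WT libraries (SD, n = 5 each).

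Type IV genes lie in neighbouring pairs, and the log2 changes of neighbours were -0.13 and -0.11 for Col4a1 and Col4a2, -0.32 and -0.28 for Col4a3 and Col4a4, and 0.06 and 0.08 for Col4a5 and Col4a6. Neighbours were closer to each other than to the other pairs, as a description that includes Col4a3, which passed the filter through its WT libraries. The RefSeq starts of Col4a1 and Col4a2 are 21 bases apart on opposite strands, and their windows share 78 bases. They are shown for that overlap, with the same windows and capitals as above, Col4a1 at chr8:11312777-11313076 on the minus strand and Col4a2 at chr8:11312555-11312854 on the plus strand.
Col4a1: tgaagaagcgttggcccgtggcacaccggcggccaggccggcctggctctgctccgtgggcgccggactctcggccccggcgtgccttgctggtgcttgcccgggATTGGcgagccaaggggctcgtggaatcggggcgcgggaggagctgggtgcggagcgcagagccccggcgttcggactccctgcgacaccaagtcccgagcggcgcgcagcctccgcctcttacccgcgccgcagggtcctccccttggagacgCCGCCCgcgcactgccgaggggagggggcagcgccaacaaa
Col4a2: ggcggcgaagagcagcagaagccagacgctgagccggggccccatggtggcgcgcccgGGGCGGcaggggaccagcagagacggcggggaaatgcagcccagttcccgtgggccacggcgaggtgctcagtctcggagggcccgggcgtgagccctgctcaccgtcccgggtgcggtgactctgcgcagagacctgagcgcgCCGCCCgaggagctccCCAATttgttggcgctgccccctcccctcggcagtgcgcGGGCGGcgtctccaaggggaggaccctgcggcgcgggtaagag
Each window held 1 CCAAT box, and the GC box was found 1 time in Col4a1 and 3 times in Col4a2. Of 35 collagen genes with a window in the table, 22 held a GC box, 12 a CCAAT box and 5 a TATA box. Over all 32851 windows the shares were 35.7% for the GC box, 37.4% for the CCAAT box and 13.6% for the TATA box. A match is a description of letters.

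The remaining collagens were not called, and 6 of 7 tested lay below 0. Col15a1, a basement membrane zone chain, had 66.6, 54.0, 67.8, 61.3 and 49.4 RPKM in KO 1, 4, 7, 8 and 17, against 58.4, 56.7, 62.3, 80.0 and 63.3 RPKM in WT 2, 9, 19, 86 and 89. Col18a1, the source of endostatin, averaged 20.7 ± 1.6 RPKM in KO-labelled and 22.4 ± 2.5 RPKM in WT libraries (SD, n = 5 each). Col8a1 and Col8a2, the type VIII network chains, had log2 changes of -0.20 and -0.30 (limma adjusted p = 0.222 and 0.336). For Col8a1 the KO-labelled libraries, at 0.698 to 0.766 RPKM, all lay below the WT libraries, at 0.786 to 1.12 RPKM. Col28a1 averaged 2.51 ± 0.15 RPKM in KO-labelled and 2.11 ± 0.30 RPKM in WT libraries (SD, n = 5 each), a log2 change of 0.21 (limma adjusted p = 0.195).

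Ratios between chains within a library do not depend on the scaling between libraries. They were tested on the log2 scale with 0.5 added to each RPKM. Of 11 ratios, 4 differed between the groups at an adjusted p under 0.05, by 2-sided exact permutation tests adjusted over the 11. The pairs were chosen with earlier results known, and other pairs of genes were not tested, so this count has no background. Col3a1 to Col1a1 was 1.68, 1.97, 1.73, 1.73 and 1.68 in KO 1, 4, 7, 8 and 17, against 1.43, 1.66, 1.11, 1.27 and 1.49 in WT 2, 9, 19, 86 and 89. Every KO-labelled library was above every WT library, with KO 1 and WT 9 close (exact permutation p = 0.0079, the smallest the 252 assignments can give, adjusted p = 0.0291). Col6a1 to Col6a2 averaged 3.01 ± 0.16 in KO-labelled and 2.63 ± 0.14 in WT libraries (SD, n = 5 each), and the groups did not overlap (exact permutation adjusted p = 0.0291).

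Col12a1 to Col14a1 was 0.392, 0.303, 0.314, 0.315 and 0.313 in KO 1, 4, 7, 8 and 17, against 0.260, 0.229, 0.261, 0.216 and 0.231 in WT 2, 9, 19, 86 and 89. The groups did not overlap (exact permutation adjusted p = 0.0291). This ratio contains the called gene Col12a1, so it is not separate support for that call. Col1a1 to Col1a2, chains of the same trimer, averaged 1.54 ± 0.12 in KO-labelled and 1.79 ± 0.17 in WT libraries (SD, n = 5 each, exact permutation adjusted p = 0.0437), and the groups overlapped. Col4a1 to Col4a2 averaged 1.51 ± 0.11 in KO-labelled and 1.53 ± 0.098 in WT libraries (SD, n = 5 each, exact permutation p = 0.754). The other 6 ratios had adjusted p-values of at least 0.140 by the same exact permutation test. With each library left out in turn, the adjusted p by exact permutation was 0.0437 to 0.0582 for the 3 ratios without overlap and 0.0437 to 0.0873 for Col1a1 to Col1a2. Each of these calls was kept without KO 1 or without WT 9, and was lost when any other library was left out. Groups without overlap stay so with a library left out, so those 3 ratios kept the smallest unadjusted p that 126 assignments allow, 0.0159. Their adjusted p was 0.0437 where Col1a1 to Col1a2 was also called, and 0.0582 where it was not. The loss of these 3 calls therefore came from the adjustment and does not show dependence on a particular animal. After centring by GC content, Col3a1 to Col1a1 and Col1a1 to Col1a2 were no longer called. Both ratios contain Col1a1, so they are not separate from each other.

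**Figure D3:**
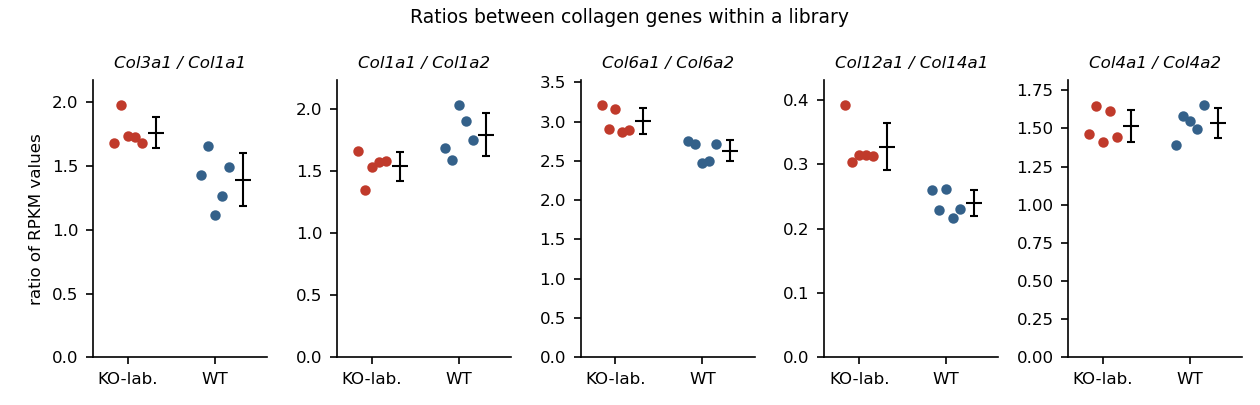
Ratios of RPKM between collagen genes within each library, with a point for each library and the mean and SD beside each group. KO-labelled points lie above all WT points for Col3a1 to Col1a1, Col6a1 to Col6a2 and Col12a1 to Col14a1, and overlap them for Col4a1 to Col4a2.

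Many collagen genes were highest or lowest in the same WT animals, as a description. Of the 31 tested genes, WT 19 was the highest WT library for 16 and WT 86 for 10, while WT 2 and WT 89 were each the lowest for 14. The same counts over all genes were not taken, so these have no background. Median-ratio scaling factors were 0.970, 0.987, 0.991, 0.975 and 0.920 in WT 2, 9, 19, 86 and 89, and their part was not tested. The SD of log2 levels was larger in WT than in KO-labelled libraries for 20 of 31 genes (64.5%), against 48.3% of all genes, and for 7 of 9 fibrillar genes. Fibrillar genes took 53.6 to 59.2% of the summed collagen level in KO-labelled and 54.2 to 63.5% in WT libraries. Fibroblast and progenitor markers did not move together in these libraries. Dcn, the most abundant of them, was at 636.7 and 624.8 RPKM in WT 19 and WT 86, lower than in the other WT libraries, while Fbn1, at 61.9 and 65.7 RPKM, and Pi16, at 6.11 and 6.99 RPKM, were higher than in the others.

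**Figure D4:**
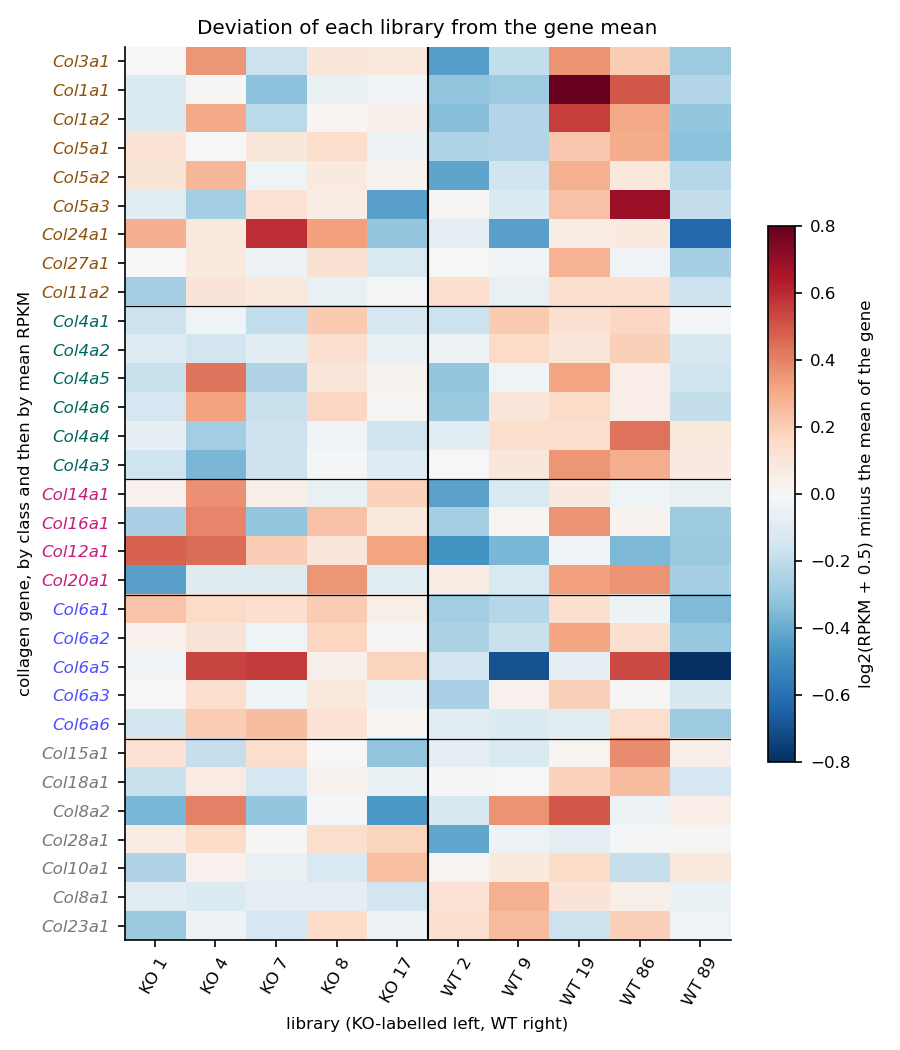
Deviation of each library from the mean of each tested collagen gene on the log2(RPKM + 0.5) scale, KO-labelled libraries left and WT right, genes by class. Most fibrillar genes are red in WT 19 and WT 86 and blue in WT 2 and WT 89, and Col12a1 is red in all KO-labelled libraries.

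The log2 change of all genes moved with the GC content of the transcript, with a median of 0.18 in the lowest of 10 GC groups and -0.0068 in the highest. The tested collagen genes lay toward the GC-rich end, from 46.8% (Col8a1, GC group 4 of 10) to 62.9% (Col11a2, group 10). The all-gene medians of those 2 groups were 0.11 and -0.0068. The counts given above against the all-gene median of 0.09 were not matched for GC content. Col12a1 has 48.3% GC, where the all-gene median was 0.09, and it was called after the median of each GC group was removed, an alternative added after seeing the data (0.53, limma adjusted p = 0.0212). Col1a1 has 58.9% GC and Col3a1 52.5%, where the medians were -0.0068 and 0.06.

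**Figure D5:**
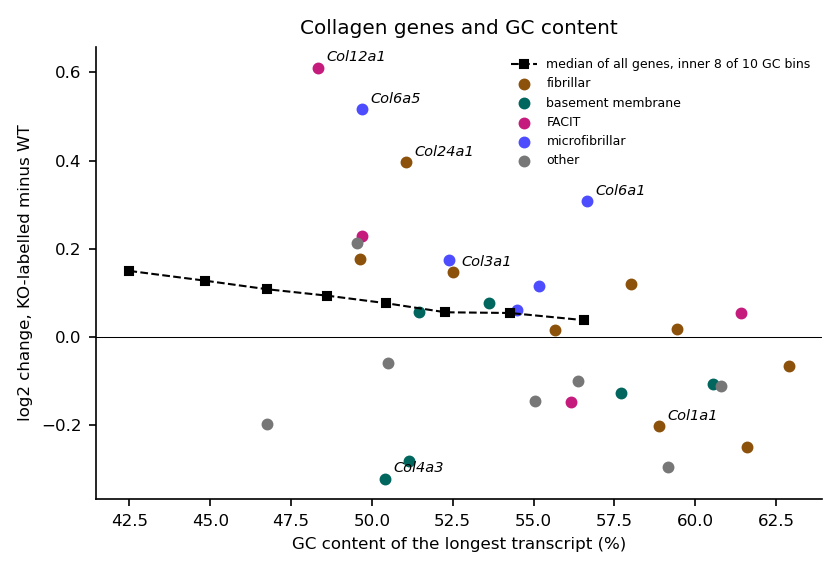
Log2 change of each tested collagen gene, KO-labelled minus WT, against the GC content of its longest transcript, coloured by class, with the median of all genes in 8 of 10 GC groups as squares. Col12a1, at 48.3% GC and 0.61, lies furthest above the squares.

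The transcript table held 197 transcripts of collagen genes, and 90 of them, from 30 genes, were tested. None was called with limma, against 0.544% of all transcripts tested, and 8 (8.89%) had an unadjusted p under 0.05, against 9.44% of all transcripts. The smallest adjusted p was 0.127, for the Col12a1 transcript ENSMUST00000071750, which averaged 3.15 ± 0.52 RPKM in KO-labelled and 1.88 ± 0.33 RPKM in WT libraries (SD, n = 5 each) with no overlap.

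Genes that modify, export, bind and break down collagen were taken from lists of known roles. Of 20 genes for chain modification and folding, 4 were called higher and none lower, beside 4.00% and 1.95% of all genes, with a median log2 change of 0.23 beside 0.09 over all genes. P4ha1, a prolyl hydroxylase subunit that stabilises the helix, averaged 32.7 ± 2.1 RPKM in KO-labelled and 23.1 ± 2.2 RPKM in WT libraries (SD, n = 5 each, log2 change 0.49, limma adjusted p = 0.00461). Plod2, a lysyl hydroxylase, averaged 39.3 ± 3.0 RPKM in KO-labelled and 24.7 ± 4.8 RPKM in WT libraries (SD, n = 5 each, log2 change 0.68, limma adjusted p = 0.0171). Fkbp7, a folding enzyme, and Plod3 had log2 changes of 0.38 and 0.27, and the Plod3 call was lost when any library was left out and under median-ratio scaling. P4ha1 lost its call with animals numbered under 20 (0.47, limma adjusted p = 0.0524).

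Of 11 tested genes for secretion and propeptide removal, 4 were called higher and none lower, beside 4.00% and 1.95% of all genes. Pcolce, which speeds removal of the procollagen end, averaged 42.2 ± 3.1 RPKM in KO-labelled and 31.3 ± 2.0 RPKM in WT libraries (SD, n = 5 each, log2 change 0.42, limma adjusted p = 0.00631). Sec23a and Sec24d, coat proteins of export vesicles, and Pcolce2 had log2 changes of 0.32, 0.31 and 0.61. Sec24d and Pcolce2 were each called in 1 of 10 fits that left out a library, and neither was called under median-ratio scaling. Sec23a and Pcolce were called in all 10 such fits. Sec23a lost its call with GC centring (0.18, limma adjusted p = 0.128) and with animals numbered under 20 (0.30, limma adjusted p = 0.0854). Pcolce lost its call with animals numbered under 20 (0.38, limma adjusted p = 0.0696). None of 7 cross-linking genes was called, with a median log2 change of 0.18 beside 0.09 over all genes. Of 12 tested receptors, 1 was called higher and none lower, beside 4.00% and 1.95% of all genes. It was Antxr2, which takes up type VI collagen (0.42, limma adjusted p = 0.00468), and it kept its call under all 21 alternatives.

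Of 15 tested breakdown genes, 5 were called higher and none lower, beside 4.00% and 1.95% of all genes, with a median log2 change of 0.32 beside 0.09 over all genes. The proteases Mmp8, Mmp3, Ctsl and Ctsk had log2 changes of 0.77, 0.75, 0.50 and 0.45, and Timp1, which inhibits metalloproteases, had 0.90. Timp4, another inhibitor, had the largest change of the list, -0.97, and was not called, averaging 10.5 ± 5.3 RPKM in KO-labelled and 19.4 ± 4.3 RPKM in WT libraries (SD, n = 5 each, limma adjusted p = 0.0852). Ctsk and Timp4 were named after their values were seen. With a library left out in turn, Mmp8 was called in 3, Mmp3 in 2, Ctsl in 5, Ctsk in 8 and Timp1 in 1 of 10 fits. None of these 5 was called after median-ratio scaling or GC centring, and macrophage marker sums, given above, stand beside them.

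The 13 untested collagens were at most 0.695 RPKM in any KO-labelled and 0.832 RPKM in any WT library, with at most 115 reads. They were Col11a1 and Col2a1 among the fibrillar chains, Col9a1, Col9a2, Col9a3, Col19a1 and Col22a1 among the FACITs, Col6a4, and Col7a1, Col13a1, Col17a1, Col25a1 and Col26a1. Col2a1, the cartilage chain, had 1 or 2 reads in each KO-labelled library and 0 in each WT library. All of these counts are at or under a floor of 3 reads per library, so no fold is given.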

How the data were processed

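Gonadal fat RNA of 5 KO-labelled and 5 WT animals was compared, as the labels group them. The authors deposited RPKM per gene and per transcript. The submitters' processing notes name bcl2fastq, STAR 2.0.4b1, Subread and featureCounts 1.4.52. Build, annotation and filters: not given in the sources used here. Repeated rows, identical in value, were collapsed (40770 rows gave 40503 genes, 84752 rows gave 84046 transcripts).

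Whole reads were recovered from the RPKM steps for 100% of 25122 genes within 0.001 reads, and voom on them called 853 genes higher and 377 lower. Log2(RPKM + 0.5) was modelled in limma 3.58.1 under R 4.3.3 (eBayes with trend and robust, statmod 1.5.0), 2-sided, for genes at 0.5 RPKM or more in at least 5 libraries. P-values were adjusted by Benjamini-Hochberg over 17038 genes or 44475 transcripts and called under 0.05. Fold changes on this scale understate low genes. Library counts and floors cover counting error only, and p-values measure the spread between animals. Chain ratios and Med19 were compared by exact permutation tests (scipy 1.17.1). GC content came from GENCODE M21 transcripts and promoter windows from RefSeq (GRCm38.p6), which matched 35 of 44 genes. The fit was tested on simulated data.

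Named genes were the called collagens, the 2 most abundant of each class, members of each ratio, Med19 and up to 4 called genes of each pathway list. Others, such as Col24a1, Col28a1, Col6a5 and Col4a4, were named after their values were seen. Members, ratios and lists were chosen with earlier results of these data known. Alternatives were other pseudocounts, filters, scalings, voom, array weights, animals numbered under 20 and leaving out each library. GC centring was added after seeing the data.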

Additional observations from a re-analysis of the deposited data

Results flagged for a closer look

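In 84 groups of 5 libraries (31 genes and 11 ratios in each group), 5 had a library far from the other 4 by Dixon's criterion, and chance gives about 1 in 20. The Col3a1 to Col1a1 ratio of KO 4 was 1.97, beside 1.68 to 1.73 in the other KO-labelled libraries. The Col12a1 to Col14a1 ratio of KO 1 was 0.392, beside 0.303 to 0.315 in the others. Col15a1 in WT 86 was 80.0 RPKM, beside 56.7 to 63.3 RPKM in the other WT libraries. Col28a1 in WT 2 was 1.59 RPKM, beside 2.14 to 2.31 RPKM in the others. The Col4a5 to Col4a1 ratio of WT 19 was 0.0690, beside 0.0505 to 0.0556 in the others.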

How the results depend on the processing

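The count of collagen genes called higher was 0 with animals numbered under 20, 2 with voom (Col12a1 and Col6a1) and 1 to 2 when each library was left out in turn. The count called lower was 1 with voom (Col4a3, which passed the filter through WT) and 0 under every other alternative run. The median log2 change of the tested collagens ranged from -0.06 to 0.12. No paired analysis was possible because the groups share no animal number.

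Without each library in turn, the log2 ratios were 0.27 to 0.42 for Col3a1 to Col1a1, 0.17 to 0.21 for Col6a1 to Col6a2, 0.32 to 0.42 for Col12a1 to Col14a1 and -0.26 to -0.17 for Col1a1 to Col1a2. Their adjusted p-values by exact permutation ran from 0.0437 to 0.0873, where 126 assignments allow no p under 0.0159. With animals numbered under 20 these ratios were 0.35, 0.18, 0.32 and -0.20, and none was called. There 56 assignments allow no unadjusted p under 0.0357. Col3a1 to Col1a1, Col6a1 to Col6a2 and Col12a1 to Col14a1, whose groups do not overlap, were at that smallest p. Their adjusted p by exact permutation was still 0.131. This test is too small to decide whether the ratio calls hold, so no conclusion is drawn from it. With GC centring, Col3a1 to Col1a1 was 0.28 and Col1a1 to Col1a2 was -0.17, neither called.

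Over all genes, 681 were called higher and 332 lower. Scaling changed that balance to 102 and 414 (median-ratio), 149 and 392 (quantile) and 125 and 383 (GC centring), and the median of all genes, 0.09 as reported, was 0.0076, 0.024 and 0.0066 under these. With no filter the calls were 292 and 247, and with animals under 20 they were 71 and 137. Pathway counts called higher were, for chain modification, 2 with animals under 20 and 3 without each library in turn. For secretion they were 1 with GC centring, 0 with animals under 20, 2 with median-ratio scaling, quantile normalization or no filter, and 2 to 3 without each library. For breakdown they were 0 with GC centring, animals under 20 or median-ratio scaling, 2 with quantile normalization or no filter, 8 with voom, and 0 to 4 without each library. For receptors they were 2 with voom, 1 to 2 without each library, and 1 was called lower with GC centring (Itga1). The causes were not tested.

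Signs that turned were all in genes or ratios not called. Col1a2 was -0.017 with GC centring, -7.4e-04 with array weights and -0.079 with median-ratio scaling. Median-ratio scaling gave -0.037 for Col16a1, -0.060 for Col27a1, -0.034 for Col4a5, -0.0085 for Col4a6 and -0.033 for Col6a3. Quantile normalization gave -0.025 for Col16a1, -0.038 for Col27a1, -0.023 for Col4a5 and -0.034 for Col6a3. Animals under 20 gave 0.0075 for Col15a1, -0.013 for Col16a1, -0.077 for Col27a1 and 0.0055 for Col4a1 to Col4a2. GC centring gave 0.038 for Col5a1 to Col5a2, -0.023 for Col8a1 to Col8a2 and -0.037 for Col15a1 to Col18a1. Without each library in turn, Col16a1 ran from -0.037 to 0.15, Col1a2 from -0.069 to 0.15, Col27a1 from -0.048 to 0.089 and Col4a5 from -0.045 to 0.14. Col15a1 to Col18a1 ran from -0.059 to 0.080, Col5a1 to Col5a2 from -0.093 to 0.0027, Col4a1 to Col4a2 from -0.054 to 0.0076 and the Med19 difference from -0.21 to 0.40 RPKM.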
